A study of Mus musculus with 6 samples.

Results

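The interferon-gamma inducible GTPases were followed in RNA-seq libraries of mouse liver sinusoidal endothelial cells (LSECs), the fenestrated endothelium of the hepatic sinusoids. The 10 genes described, taken by symbol from a table of 60832 genes, were 4 guanylate-binding proteins (GBPs), Gbp2, Gbp3, Gbp5 and Gbp7, and 6 immunity-related GTPases (IRGs), Irgm1, Irgm2, Igtp, Iigp1, Ifi47 and Tgtp2. There were 3 libraries from mice with bevacizumab-sensitive and 3 from mice with bevacizumab-resistant liver metastases of HCT116 cells, an established human line of colorectal cancer. Bevacizumab is an antibody against VEGF-A, and the resistant xenografts had been made by repeated dosing with it. The hosts were male BALB/c-Nu mice of a few weeks of age when obtained, whose age at sampling is not given here. They carry the nude mutation, have no functional thymus and so have few mature T cells, but keep natural killer (NK) cells and macrophages. LSECs were isolated with anti-CD146 beads, and per the labels all libraries came from cells cultured for 24 h, so the groups share the isolation and the culture. In the study's xenograft experiments the vehicle group was given IgG, and the labels do not say that the sensitive libraries came from that group. The sources used here do not state whether each library was 1 mouse. The p-values below therefore measure the spread between these libraries, which may be technical.

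Interferon-gamma is made mainly by NK and T cells. Its receptor signals through the kinases JAK1 and JAK2 to the GAS element in target promoters and induces IRF1, a factor that binds the ISRE element. GBPs and IRGs are among the most strongly induced targets in mouse macrophages and also in endothelial cells: GBPs coat bacteria and pathogen vacuoles and promote inflammasome activation, effector IRGs such as Iigp1 disrupt the vacuole of Toxoplasma, and the regulators Irgm1, Irgm2 and Igtp keep effector IRGs away from the cell's own membranes. Many of these genes also respond to type I interferon, so their RNA does not tell the interferons apart.

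Total counts on genes lay between 17599326 and 20726684 per library, where 3 counts correspond to 0.145 to 0.170 CPM (a gene's counts over the library total, scaled alike in all libraries). This floor reflects counting error alone. The LSEC label was checked against markers. Macrophage markers were far more abundant than LSEC markers, of which some were low and others clearly detected. The CPM of 18 macrophage and Kupffer cell markers summed to between 27373 and 41959 and that of 16 LSEC markers to between 996 and 2448. Mrc1 and Stab1, which macrophages also express, held 79.6% of the LSEC sum. Of the other LSEC markers, Stab2 was at 29.1 to 142 CPM and Lyve1 at 7.67 to 253 CPM. Clec4g was at 0.809 to 5.69 CPM, Gpr182 at 1.32 to 5.28 CPM and F8 at 0 to 2.04 CPM. Mcam, which encodes the CD146 used for the isolation, was at 0.303 to 3.84 CPM. Some pan-endothelial markers were higher, such as Cdh5 at 18.0 to 234 CPM and Pecam1 at 8.85 to 91.9 CPM. The libraries are named by group only, and the cell of origin of the GTPase RNA was not tested. In such bulk libraries, fewer cells of a type and less RNA per cell cannot be told apart. The library of sensitive replicate 2 stood apart: of the 15474 genes tested it had the lowest CPM for 47.7% and the highest for 26.0%. Results are given with and without it where it decides them.

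RefSeq promoter windows (GRCm38.p6, 250 bases before to 50 after the start) were at hand for 9 of the 10 genes, all but Iigp1, with 2 alternative windows for Gbp3. They were searched on both strands for the GAS letters TTCNNNGAA and the ISRE core letters GAAANNGAAA, each also in reverse complement. No GAS match overlapped an ISRE core match in these windows. The ISRE core was found in 8 of the 9 genes, against 3.44% of all 32851 promoters in the table. GAS was found in 5 of the 9, against 8.30% of all promoters, and both motifs were found in the same 5 genes, against 0.454%. The stretches around the matches are printed because they show the letters that these genes share. They are written 5′ to 3′ on the gene's strand, with the matches in capitals. The first set, at the IRG loci of chromosome 11, is chr11:58199495-58199547 (plus strand) for Igtp, chr11:58214886-58214938 (plus strand) for Irgm2, chr11:49064257-49064309 (minus strand) for Tgtp2 and chr11:48871419-48871466 (minus strand) for Irgm1.
Igtp: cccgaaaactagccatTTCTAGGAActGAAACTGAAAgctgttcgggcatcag
Irgm2: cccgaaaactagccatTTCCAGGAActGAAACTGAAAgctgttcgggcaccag
Tgtp2: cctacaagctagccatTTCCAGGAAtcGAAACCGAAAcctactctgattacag
Irgm1: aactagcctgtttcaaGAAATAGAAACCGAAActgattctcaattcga
In Igtp, Irgm2 and Tgtp2 the GAS match ended 2 bases before the ISRE core, while the Irgm1 window had no GAS match and 2 ISRE core matches that overlap each other.

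The second set holds the GBPs of chromosome 3, all on the plus strand, at chr3:142620588-142620629 for Gbp2, chr3:142559983-142560030 for Gbp3, chr3:142496753-142496794 for Gbp5 and chr3:142530214-142530308 for Gbp7.
Gbp2: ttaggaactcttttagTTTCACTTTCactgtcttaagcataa
Gbp3: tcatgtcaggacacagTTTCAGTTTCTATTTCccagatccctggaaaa
Gbp5: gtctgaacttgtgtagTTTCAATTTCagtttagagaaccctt
Gbp7: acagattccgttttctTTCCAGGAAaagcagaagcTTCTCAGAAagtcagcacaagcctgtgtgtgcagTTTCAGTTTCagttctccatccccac
All 4 GBPs had the ISRE core on the opposite strand to the gene, and in Gbp3 2 such matches overlap. Gbp5 and Gbp7 had 2 GAS matches each, of which those of Gbp5 lie outside the stretch printed, starting 245 and 52 bases upstream of the start. The Ifi47 window and the second Gbp3 window held no match to these letters. The RefSeq start lies inside the gene as GENCODE draws it by 2956 bases for Gbp5, 15359 for Irgm2, 263 for Irgm1, 61 for Gbp2, and 18 and 330 for the starts of Gbp3.

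**Figure D1:**
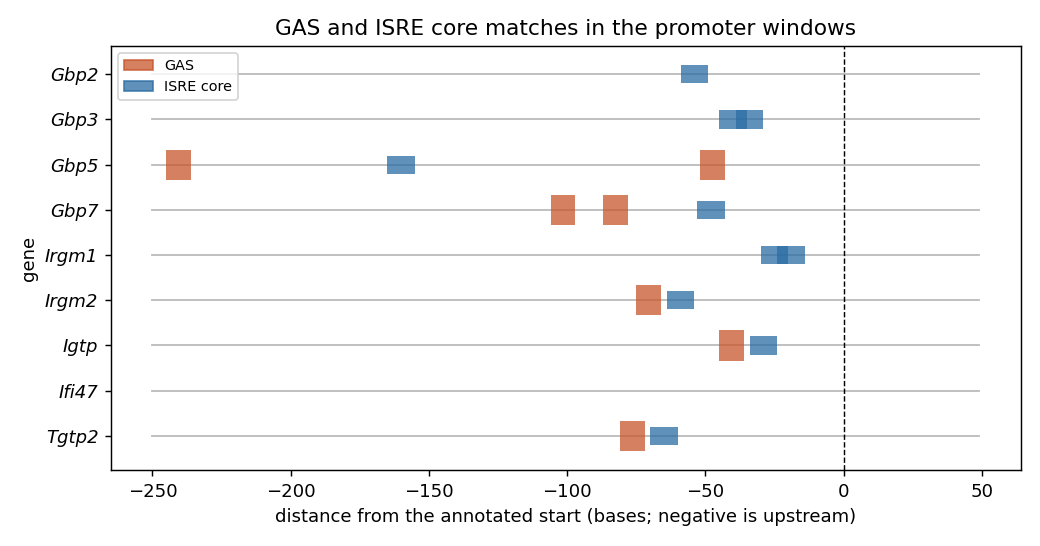
Position of GAS matches (orange) and ISRE core matches (blue) in the promoter windows of 9 genes, in bases from the annotated RefSeq start (dashed line, negative is upstream). The 3 GAS and ISRE pairs that lie 2 bases apart are those of Irgm2, Igtp and Tgtp2, and Ifi47 has no match.

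The fitted difference was below 0 for each of the 10 genes, but it did not pass the test for any of them, and the groups overlapped for 8 of the 10. The CPM of the 10 genes summed to 365, 258 and 368 in the sensitive and 356, 209 and 157 in the resistant replicates, so resistant replicate 1 was above sensitive replicate 2. All 10 passed the filter on low counts. In the quasi-likelihood test of edgeR, with p-values adjusted by Benjamini and Hochberg's method over 15474 genes, 0 of the 10 had an adjusted p under 0.05, where 0% of all genes did, and the adjusted p-values of the 10 lay between 0.940 and 0.976. DESeq2's Wald test also called 0 of the 10, against 0.155% of all genes, and limma-voom 0 of the 10, against 0%. The log2 fold changes (resistant minus sensitive) were negative for 10 of 10 genes and for 9 with limma-voom or with the replicate number as a block, where Irgm2 was just above 0, with a median of -0.67, beside a median of 0.01 over all genes tested, of which 49.2% were negative. Without sensitive replicate 3 or without resistant replicate 3, 7 of 10 were negative, and without resistant replicate 2, 8 of 10. At an unadjusted p under 0.05 there were 4 of the 10, Irgm1, Igtp, Iigp1 and Ifi47, all lower in the resistant group, against 2.54% of all genes tested. Without sensitive replicate 2 the 4 were Irgm1, Irgm2, Igtp and Iigp1, against 3.96% of all genes in either direction. Without sensitive replicate 1 or without resistant replicate 3 there were 0, against 3.76% and 1.03%. The CPM of the groups did not overlap for 2 of the 10, Irgm1 and Iigp1, both lower in the resistant group, against 3.38% of all genes tested. The 10 genes are known targets of one pathway and were measured in the same 6 libraries, so they are not independent of each other.

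**Figure D2:**
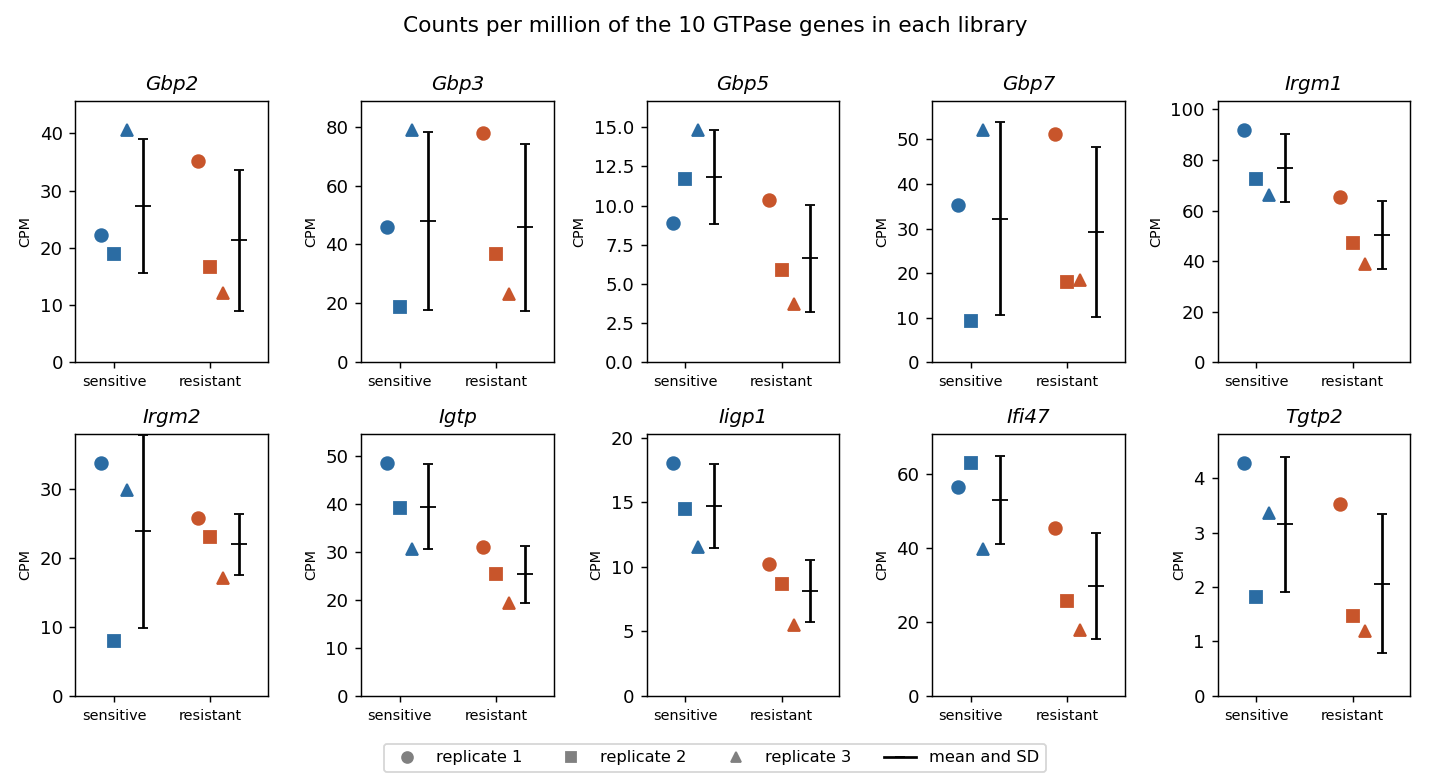
CPM of the 10 genes by group, with circles, squares and triangles for replicates 1, 2 and 3, and the mean with its SD (n = 3) in black. Irgm1 and Iigp1 have no overlap between the groups, and Gbp2, Gbp3 and Gbp7 are highest in sensitive replicate 3 and resistant replicate 1.

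The 4 GBPs lie in one cluster on chromosome 3, with Gbp2b between Gbp3 and Gbp2 (GRCm38, GENCODE M21, all on the plus strand, protein coding): Gbp5 at chr3:142493978-142522344, Gbp7 at chr3:142530342-142550149, Gbp3 at chr3:142560026-142573209 and Gbp2 at chr3:142620602-142638008. Their reads were counted over exons. For Gbp2, Gbp3 and Gbp7 the SD within either group was larger than the difference between the group means.

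Gbp2 (ENSMUSG00000028270), a GBP anchored to membranes by prenylation and recruited to pathogen vacuoles, had 22.2, 18.9 and 40.7 CPM in sensitive replicates 1, 2 and 3 and 35.3, 16.6 and 12.1 CPM in resistant replicates 1, 2 and 3. Sensitive replicate 3 and resistant replicate 1 were high, the other 4 libraries were lower, and the groups overlapped. The means were 27.3 ± 11.7 and 21.3 ± 12.3 CPM (SD, n = 3 each). This gave a log2 fold change of -0.43, with a standard error of 0.45 and a 95% interval of -1.49 to 0.63. It was -0.03 without sensitive replicate 3, -0.15 without resistant replicate 3, -0.30 without resistant replicate 2 and -0.94 without resistant replicate 1.

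Gbp3 (ENSMUSG00000028268) had 45.9, 18.8 and 79.0 CPM in the sensitive and 77.7, 36.7 and 23.3 CPM in the resistant replicates, in the order 1, 2 and 3. The lowest and the highest library both belonged to the sensitive group, so that the groups overlapped along nearly the whole range. Its log2 fold change was -0.11, with a standard error of 0.57 and a 95% interval of -1.45 to 1.22.

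Gbp5 (ENSMUSG00000105504), known for promoting NLRP3 inflammasome assembly, had 8.91, 11.7 and 14.8 CPM in the sensitive and 10.4, 5.87 and 3.69 CPM in the resistant replicates. Resistant replicates 2 and 3 lay below every sensitive library, and resistant replicate 1 lay within the sensitive range. The log2 fold change was -0.92, with a 95% interval of -1.94 to 0.10, the most negative of the 4 GBPs.

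Gbp7 (ENSMUSG00000040253) had 35.2, 9.26 and 52.1 CPM in the sensitive and 51.1, 17.9 and 18.5 CPM in the resistant replicates. As for Gbp3, sensitive replicate 2 was the lowest library and sensitive replicate 3 the highest. For Gbp7 the log2 fold change was -0.19, with a 95% interval of -1.66 to 1.29. Of its exonic bases 637 overlap Gm43802 on the same strand, so reads there could not be assigned to either gene with certainty.

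The direction of Gbp3 and Gbp7 turned when a single library was left out. Without sensitive replicate 3 the log2 fold changes of Gbp3 and Gbp7 were 0.46 and 0.37, and without resistant replicate 3 they were 0.20 and 0.05. Without sensitive replicate 2, the library that stood apart, they were -0.47 and -0.61. The intervals given above for Gbp2, Gbp3, Gbp5 and Gbp7 all include 0.

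Of the IRGs, the regulators Irgm1, Irgm2 and Igtp carry GMS in place of the GKS motif in the nucleotide-binding loop. Irgm1 (ENSMUSG00000046879) lies at chr11:48861968-48871683 on the minus strand and is protein coding. It had 92.0, 72.6 and 66.0 CPM in the sensitive and 65.2, 47.3 and 38.9 CPM in the resistant replicates. Every resistant library was below every sensitive library, with a narrow gap between sensitive replicate 3 and resistant replicate 1. The means were 76.9 ± 13.5 and 50.5 ± 13.5 CPM (SD, n = 3 each). On the log2 scale the resistant group differed by -0.67 with a standard error of 0.24, a 95% interval of -1.24 to -0.11 and an unadjusted edgeR p of 0.025. An exact two-sided permutation test over the 20 divisions of the libraries gave p = 0.1, the smallest that 3 against 3 libraries allow.

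Igtp (ENSMUSG00000078853, chr11:58199556-58207591, plus strand, protein coding), also called Irgm3, had 48.6, 39.2 and 30.7 CPM in the sensitive and 31.2, 25.5 and 19.4 CPM in the resistant replicates. Only sensitive replicate 3 and resistant replicate 1 crossed, by a narrow margin, and after TMM scaling the groups did not overlap, as for 4.38% of all genes with lower resistant values. The log2 fold change was -0.71, with a standard error of 0.26, a 95% interval of -1.32 to -0.10 and an unadjusted edgeR p of 0.029.

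Irgm2 (ENSMUSG00000069874, chr11:58199618-58222782, plus strand, protein coding) is the neighbour of Igtp and shares 162 exonic bases with it on the same strand. It had 33.8, 7.90 and 30.0 CPM in the sensitive and 25.9, 23.1 and 17.2 CPM in the resistant replicates. The resistant libraries lay close together, while sensitive replicate 2 was far below every other library. Irgm2 had a log2 fold change of -0.14, with a standard error of 0.46. Without sensitive replicate 2 it was -0.53, and it was 0.14 without sensitive replicate 1, 0.08 without sensitive replicate 3 and 0.02 without resistant replicate 3. Igtp, in contrast, was above its own mean in sensitive replicate 2, by 0.33 on the log2 scale, where Irgm2 was at -1.40.

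The effector IRGs include Iigp1 (Irga6), a GTPase that oligomerizes on the vacuole membrane. Iigp1 (ENSMUSG00000054072, chr18:60376027-60392634, plus strand, protein coding) had 18.0, 14.5 and 11.5 CPM in the sensitive and 10.2, 8.65 and 5.46 CPM in the resistant replicates. The groups did not overlap, and resistant replicate 3 was the lowest. The means were 14.7 ± 3.25 and 8.11 ± 2.43 CPM (SD, n = 3 each), so that the resistant mean was 55.3% of the sensitive mean. The log2 fold change was -0.92, with a standard error of 0.32, a 95% interval of -1.68 to -0.16 and an unadjusted edgeR p of 0.024. The exact two-sided permutation test again gave its smallest possible value, p = 0.1.

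Ifi47 (Irgd, ENSMUSG00000078920, chr11:49076587-49096974, plus strand, protein coding) had 56.4, 63.0 and 39.8 CPM in the sensitive and 45.5, 25.7 and 17.8 CPM in the resistant replicates. Resistant replicates 2 and 3 were below all sensitive libraries, and resistant replicate 1 was above sensitive replicate 3. The log2 fold change was -0.93, the most negative of the 10, with a standard error of 0.38, a 95% interval of -1.82 to -0.04 and an unadjusted edgeR p of 0.042. It overlaps Olfr56 on its own strand and Gm12188 on the other strand by 111 and 106 exonic bases.

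Tgtp2 (a member of the IRGB group of effector IRGs, ENSMUSG00000078921, chr11:49057194-49064206, minus strand, protein coding) was the least abundant, with 84, 32 and 69 counts in the sensitive and 73, 29 and 23 counts in the resistant replicates. These were 4.28, 1.82 and 3.36 CPM and 3.52, 1.47 and 1.196 CPM. The groups overlapped, and the log2 fold change was -0.66 with a 95% interval of -1.94 to 0.61. It was -1.23 without resistant replicate 1 and -0.39 without resistant replicate 3. Of the 100-base stretches of its transcripts, 76.8% also occur in other genes, Tgtp1 and Gm12185, so its counts depend on how shared reads were treated and are uncertain. With the counts of Tgtp1 and Tgtp2 summed, the log2 fold change was -0.49. For the other 9 genes this share was at most 10.0%, in Gbp7.

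Which library was high differed between the families. The summed CPM of the 4 GBPs was 112, 58.7 and 187 in the sensitive and 174, 77.0 and 57.5 in the resistant replicates. That of the 6 IRGs was 253, 199 and 181 in the sensitive and 182, 132 and 99.9 in the resistant replicates. GBPs made up 50.7% of the CPM of the 10 genes in sensitive replicate 3 and 49.0% in resistant replicate 1, but 22.8% in sensitive replicate 2. The GBP sum thus overlapped widely between the groups, and the IRG sum crossed only between sensitive replicate 3 and resistant replicate 1. The median log2 fold change was -0.31 for the 4 GBPs and -0.69 for the 6 IRGs, and the difference between the families was not tested. Resistant replicate 3 had the lowest CPM for 7 of the 10 genes, beside 11.3% of all genes tested, and sensitive replicate 2 for the other 3, Gbp3, Gbp7 and Irgm2. The highest library was always a sensitive one, replicate 1 for 5 genes, replicate 3 for the 4 GBPs and replicate 2 for Ifi47. Over all genes tested, sensitive replicates 1, 2 and 3 were highest for 16.4%, 26.0% and 15.2%.

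**Figure D3:**
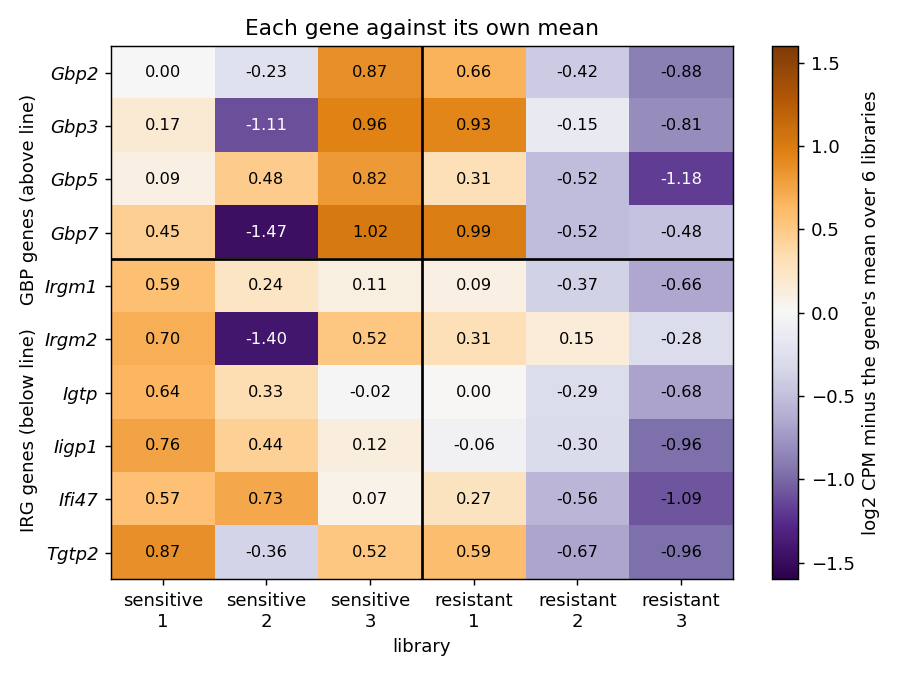
Log2 CPM of each gene minus its mean over the 6 libraries, with GBPs above the horizontal line, IRGs below it and resistant libraries right of the vertical line. Sensitive replicate 2 holds the lowest values of Gbp3 (-1.11), Gbp7 (-1.47) and Irgm2 (-1.40), beside positive values of Irgm1, Igtp, Iigp1 and Ifi47.

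Levels were compared between genes per length, as the deposited FPKM, over the 6 libraries (mean ± SD, n = 6). Ifi47 was at 16.7 ± 7.03 FPKM, Igtp at 16.0 ± 5.09, Gbp3 at 14.4 ± 8.02, Irgm1 at 10.96 ± 3.24 and Gbp2 at 9.66 ± 4.46 FPKM. Irgm2 and Gbp7 followed with 6.22 ± 2.53 and 5.46 ± 3.25 FPKM. Iigp1, Gbp5 and Tgtp2 were lowest, with 1.96 ± 0.759, 1.39 ± 0.606 and 0.887 ± 0.433 FPKM. For the 9 pairs of neighbours in this order, an exact two-sided sign-permutation test on log2 FPKM within libraries gave a smallest p of 0.0625 and a smallest Benjamini-Hochberg adjusted p of 0.211. With 6 libraries the smallest possible p is 0.03125, and at least 6 of the 9 pairs would have to reach it for a call, so this outcome says little about whether neighbours differ. In each of the 9 pairs, at least 1 library had the reverse order. The widest step was from Gbp7 to Iigp1, 2.50-fold on the geometric mean and in that direction in 5 of 6 libraries.

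Beyond the 10 genes, 18 other genes of the same families were listed, and 16 passed the filter. Their adjusted edgeR calls numbered 0, their log2 fold changes were negative for 14 of 16, and the median was -0.56. The 3 most abundant were Gbp8 with a log2 fold change of -0.31, Irgq with 0.10 and Gbp9 with -0.69. An unadjusted p under 0.05 was reached by 3 of them, all lower in the resistant group, against 2.54% of all genes tested. The 3 were Gbp2b (-1.60), Gvin1 (-1.38) and Gm12185 (-1.28), which are named after their values were seen. By locus, the 5 genes of the chromosome 3 cluster summed to 131, 80.9 and 201 CPM in the sensitive and 185, 81.1 and 62.0 CPM in the resistant replicates. Sensitive replicate 3 and resistant replicate 1 were also highest for the 6 GBPs of chromosome 5, with 112, 77.7 and 126 CPM and 127, 54.7 and 50.2 CPM. The 7 genes of the Irgm1, Tgtp2 and Ifi47 locus summed to 190, 152 and 161 CPM in the sensitive and 146, 94.3 and 80.3 CPM in the resistant replicates. There the sums did not overlap, by the narrow margin of 152 against 146 CPM. Irgm1, whose groups did not overlap by itself, is part of this sum. Of all single genes tested, 3.38% did not overlap in this direction. The groups overlapped at the Igtp and Irgm2 locus, where the lowest sensitive sum was 62.7 and the highest resistant sum 64.1 CPM, and at the Iigp1 locus, with 23.0 and 27.2 CPM. In sensitive replicate 2, 9930111J21Rik1, a gene of the Irgm1, Tgtp2 and Ifi47 locus, was at 0.114 CPM, beside 3.84 to 14.4 CPM in the other libraries.

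**Figure D4:**
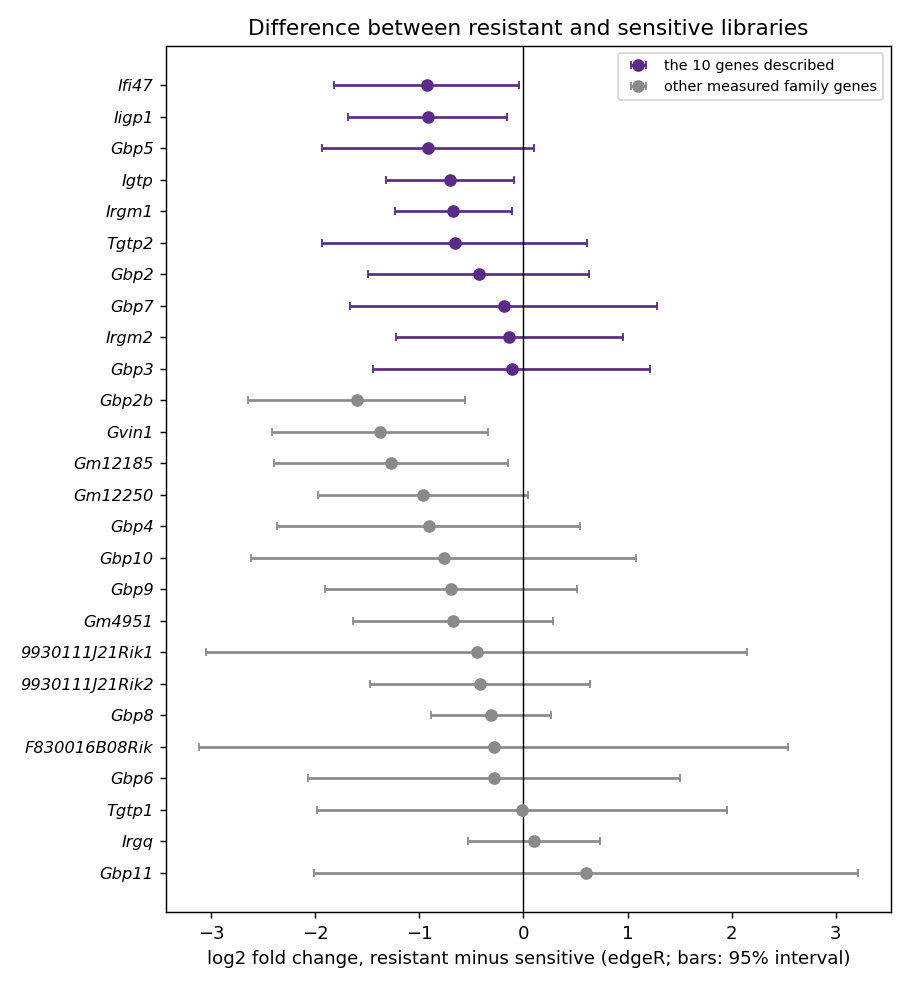
Log2 fold change (resistant minus sensitive, edgeR) with its 95% interval for the 10 genes (purple) and the 16 measured other family genes (grey). All 10 points of the genes described lie below 0, and the intervals of Ifi47, Iigp1, Igtp and Irgm1 do not reach it.

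The pathway above the GTPases was read from lists of ligand, receptor and signalling genes. Ifng, the ligand itself, had 1 count in sensitive replicate 3 and 0 in the other 5 libraries, at or below the floor of 3 counts in all. Il12a and Il12b, the subunits of IL-12, did not pass the filter. Of the other inducers, Il15 had a log2 fold change of 0.13, Il18 of -0.32 and Il27 of -0.70. The receptor subunits gave -0.47 for Ifngr1 and -0.06 for Ifngr2, and the kinases gave 0.11 for Jak1 and 0.05 for Jak2. Irf1, Irf8 and Batf2, transcription factors of the response, gave -0.37, -0.21 and -0.16. The unadjusted p of each of these 7 receptor and signal genes was above 0.05 in edgeR's test.

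Among 5 inhibitors of the pathway, 0 reached an unadjusted p under 0.05 and all 5 log2 fold changes were negative. The most abundant were the phosphatase gene Ptpn6 (-0.32), Pias1 (-0.01) and Socs3 (-0.77). Of 15 other interferon-gamma targets, 12 passed the filter, with a median of -1.01, 11 were negative and 2 reached an unadjusted p under 0.05. The 3 most abundant were Ly6a (-1.18), the immunoproteasome subunit Psmb8 (-1.23) and the peptide transporter Tap1 (-0.62). Of 17 partners of GTPase function, such as autophagy and inflammasome genes, 11 were negative, 2 reached an unadjusted p under 0.05 and the median was -0.08. There Sqstm1 gave -0.08, Gabarap -0.50 and Map1lc3b -0.12. The genes of these lists at an unadjusted p under 0.05 were lower in the resistant group, as were 2.54% of all genes tested.

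Type I interferon targets were set beside the GTPases, since they share regulators. All 19 passed the filter and 19 of 19 log2 fold changes were negative, with a median of -1.05. In edgeR's test 9 reached an unadjusted p under 0.05 and 0 an adjusted one. Of all genes tested, 2.54% were lower at an unadjusted p under 0.05. The most abundant were Irf7 (-0.73), Oas3 (-1.04) and Oas1a (-1.37). Relative to its own mean, the summed CPM of this list was 1.51 and 1.63 in sensitive replicates 1 and 2 and 0.704 in sensitive replicate 3. Sensitive replicate 3, the highest library of the GBPs, was thus among the low ones for this list. Its highest libraries, sensitive replicates 1 and 2, and its lowest, resistant replicate 3 (0.389), were also those of the IRG sum. That sum was at 1.45 and 1.14 in sensitive replicates 1 and 2 and at 0.573 in resistant replicate 3, relative to its own mean.

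Markers of other cells moved across the same libraries. The CPM of 12 neutrophil markers summed to 5347, 7000 and 649 in the sensitive and 2163, 1564 and 339 in the resistant replicates, and all 12 had a negative log2 fold change. Like Irgm1, Igtp, Iigp1 and Ifi47, this sum, though not each marker in it, was highest in sensitive replicates 1 and 2 and lowest in resistant replicate 3. The same held for the sums of the type I interferon targets and of the other interferon-gamma targets, so this order was not particular to the neutrophil markers. The 16 LSEC markers summed to 1586, 996 and 2448 in the sensitive and 2104, 1266 and 1472 in the resistant replicates, with sensitive replicate 3 and resistant replicate 1 highest, as for Gbp2, Gbp3 and Gbp7. Without Mrc1 and Stab1, the other 14 summed to 352, 198 and 482 CPM and to 523, 166 and 292 CPM, and the same 2 libraries were highest. Lyve1, at 65.3, 7.67 and 187 CPM and at 253, 8.45 and 129 CPM, held much of that sum. So did Stab2, at 111, 83.0 and 128 CPM and at 142, 29.1 and 41.5 CPM. The order was not shared by each marker, as Fcgr2b was highest in resistant replicate 2 and Plxnc1 in sensitive replicate 1. The macrophage markers summed to 27373, 38582 and 41959 and to 31461, 30608 and 34831 CPM, and 10 of 18 were negative. The 15 pan-endothelial markers summed to 80.8 CPM in resistant replicate 2 and to between 280 and 540 CPM in the other libraries. Of these 15, 14 had a negative log2 fold change, with a median of -0.94. An unadjusted edgeR p under 0.05 was reached by 5, and 5 did not overlap between the groups, all lower in the resistant group. Over all genes tested, 2.54% were lower at this p and 3.38% were lower without overlap. Of the 9 measured hepatocyte markers, 8 had a positive log2 fold change, with a list median of 0.86. The exception was Hp, at 64.1 to 1848 CPM and highest in sensitive replicate 2. The NK and T cell markers, the usual sources of interferon-gamma, summed to 25.9 to 29.2 CPM in the sensitive and 11.3 to 25.8 CPM in the resistant replicates. Of those 17 genes 13 failed the filter, Klrb1c and Cd8b1 were at 0 in all libraries, and Cd4 and Klrk1 held most of the sum. The part of these cells in the GTPase values was not tested.

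**Figure D5:**
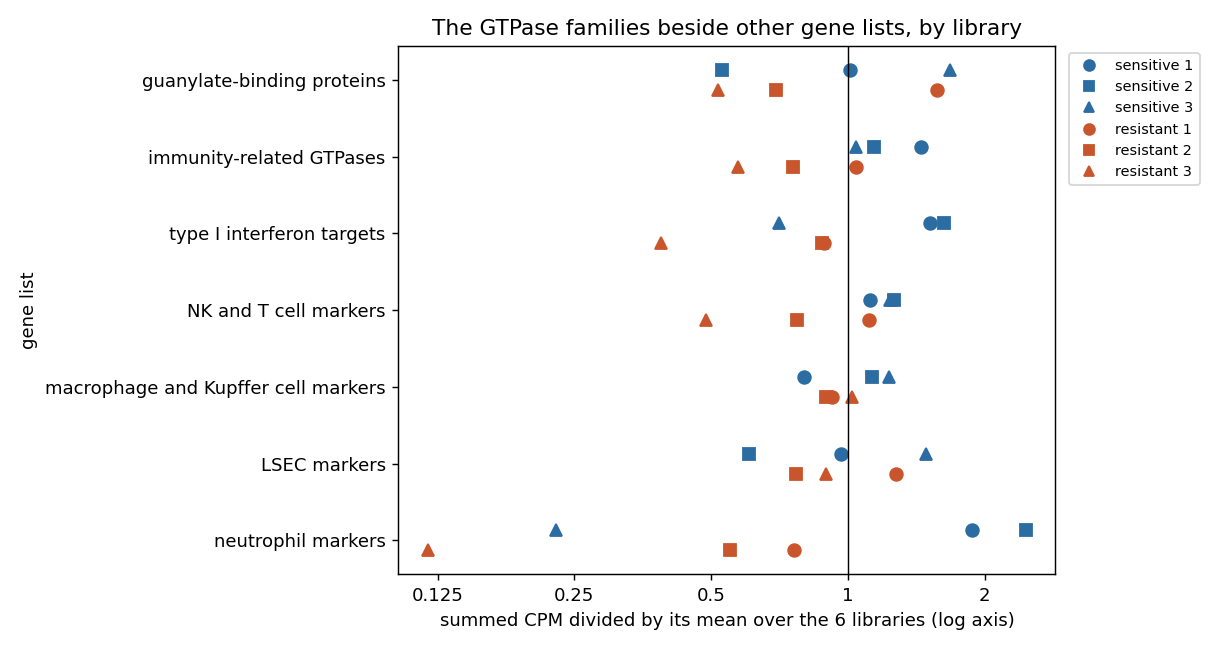
Summed CPM of each list divided by its mean over the 6 libraries, on a log axis, with sensitive libraries in blue, resistant in orange and the replicate by symbol. The GBP sum is lowest in resistant replicate 3 (0.518) and highest in sensitive replicate 3 (1.68), and the neutrophil sum spreads most, from 0.119 to 2.46.

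The genes whose profile over the 6 libraries was most like the mean profile of the 10 were sought among 9630 genes with an average log2 CPM of at least 3. Likeness was the root mean square difference of centred log2 CPM. Among the nearest 5 were Itpa-ps1, a pseudogene (0.09), Slfn8, a Schlafen gene (0.13), Tgm2, transglutaminase 2 (0.15), and Ahcy (0.15), beside a median of 0.57 over the genes compared. None of these 4 was in the lists above. Their log2 fold changes lay between -0.22 for Tgm2 and -0.53 for Slfn8.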

How the data were processed

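Samples were grouped by their titles. The series' design text speaks instead of a human stellate cell line in conditioned media, and the titles and labels, which name LSECs, were followed. Per the submitters' processing notes, reads were aligned with HISAT2 2.0.5 and counted with featureCounts 1.5.0-p3. The labels name rRNA depletion and the study's methods also poly(A) selection, and strandedness is not given in the sources used here. The authors deposited whole-number counts per gene without normalization, and FPKM values, which divide the count by the library total and a gene length. A further deposited table of the authors' own comparison (fold changes, p-values) was not used. The notes name the build mm9, but the deposited lengths of all the family genes equal those of GENCODE M21 (GRCm38), which was used for coordinates by Ensembl identifier; the files hold none.

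Counts were tested in R 4.3.3 with edgeR 4.0.16 (filterByExpr, TMM, robust quasi-likelihood test, two-sided, Benjamini-Hochberg, threshold 0.05), on all 6 libraries without covariate, as the study compares the groups. Log2 CPM used a prior count of 2, and exact permutation tests used log2 CPM with 0.5 added to each count before scaling. Standard errors are those implied by the F statistic. Intervals are at 95%. On simulated counts of 14975 genes for this comparison, edgeR called 3 of 50 genes changed 2-fold, 23 of 48 changed 4-fold, 45 of 50 changed 8-fold, 43 of 48 changed 16-fold and 7 of 14779 unchanged genes. Each gene was drawn independently of the others, and all changed genes were tested together. These rates need not hold for the real libraries. Within-group pairs of libraries differed beyond sampling noise.

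The members and lists were chosen with earlier results of these data known. Named are all 10 members, the 3 most abundant measured genes of each other list, all ligand, receptor and signal genes, and the 5 genes of most alike profile, except for items that are not reported here. Marker genes outside this rule were named after their values were seen. Alternatives were DESeq2 1.42.0, limma-voom (limma 3.58.1), other scalings and filters, no robust moderation, a block for the replicate number, and leaving out single libraries.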

Additional observations from a re-analysis of the deposited data

How the results depend on the processing

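At an adjusted p under 0.05, edgeR called 0 genes, and the count was 2 without a filter on low counts, 24 with DESeq2 and 1 with limma-voom with sample weights, an alternative chosen after seeing the data. None of these were among the 10 GTPases, of which 0 passed under any alternative run. Their median log2 fold change, -0.67, ranged from -0.90 to -0.45 over the 6 fits that lacked 1 library. Of 151 single-gene values under alternatives, 140 kept their direction and 11 reversed. Irgm2 was at 0.0049 with limma-voom and 0.024 with the replicate block, and at -0.53 to 0.14 with a library left out. Leaving a library out moved Gbp3 between -0.67 and 0.46 and Gbp7 between -0.81 and 0.37. The cause was not tested.

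At an unadjusted p under 0.05, the number of the 10 genes, 4 in the main comparison, was 0 without sensitive replicate 1, 0 without resistant replicate 3, and 1, Iigp1, without resistant replicate 2 or with library totals alone. In that order, 3.76%, 1.03%, 1.51% and 2.44% of all genes reached this p in either direction. The number was 7 with sample weights, where 9.59% of all genes reached this p in either direction, against 3.08% in the main comparison. Without resistant replicate 1, the groups of 7 of the 10 genes did not overlap, against 10.7% of all genes tested. Without sensitive replicate 1, 2 or 3 the groups of 3, 3 and 4 genes did not overlap, against 6.20%, 9.77% and 12.2%. Without resistant replicate 2 or 3 those of 2 genes each did not, against 5.17% and 4.84%.

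The replicate numbers were not taken as pairs: same-numbered libraries' deviations correlated at 0.00, 0.03 and 0.19, and 3 of 6 libraries were closest to their own number. In the fit with the replicate block, 0 genes were called and the median was -0.70.

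The lowest count of the 10 genes was 23, of Tgtp2, far above the floor. In simulated counts, 3 libraries a group gave a call for few genes changed 2-fold. The genes there were drawn independently of each other, so that rate need not hold for the real libraries.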
